A study of Mus musculus with 15 samples.

Results

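The 10 genes described here encode proteins that act in the synthesis of prostanoids and leukotrienes from arachidonic acid. They are the cyclooxygenases Ptgs1 and Ptgs2, the prostanoid synthases Ptges, Ptges2, Ptges3, Ptgis, Hpgds and Tbxas1, and the 5-lipoxygenase pair Alox5 and Alox5ap. They were taken by symbol from a table of read counts for 53278 genes, and all 10 were present and passed the filter on low counts, as did 18369 genes in all. The libraries came from the brain cortex of 15 male C57BL/6J mice aged 10 to 20 weeks, 1 library per mouse and 5 mice per group. Control mice ate control food. The PLX3397 group ate food with PLX3397, an oral inhibitor of the receptor kinase CSF1R on which microglia depend, for 9 days. The repopulation group had the same 9 days of PLX3397, followed by 9 days back on control food. An inhibitor given in food reaches the whole body and other CSF1R-dependent macrophages, so it is not specific to microglia. Each library held 23413551 to 48617851 counted reads, and control mouse 1 had the deepest one.

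Cyclooxygenases convert arachidonic acid to the unstable intermediate PGH2, and a terminal synthase then makes from it PGE2, prostacyclin, PGD2 or thromboxane. 5-lipoxygenase, helped by its membrane partner FLAP, takes arachidonic acid down a separate path to the leukotrienes. In the brain, PTGS1 is known from microglia, PTGS2 from excitatory neurons, where activity induces it, and HPGDS and TBXAS1 from microglia and other macrophages. Prostanoids act on blood vessels, and the title of the series names cerebrovascular reactivity.

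The microglial markers Csf1r, Cx3cr1, P2ry12 and Tmem119 were left on PLX3397 at 0.25%, 0.228%, 2.93% and 5.73% of their control means, and stood at 124%, 107.7%, 110.2% and 102.7% after repopulation. Cortical neuron markers, among them Slc17a7, were detected in every group, with summed levels of 5447 to 6091 CPM (counts scaled to the library total). All 10 microglial markers were called lower on PLX3397, with a summed level of 26.9 to 31.4 CPM against 301.1 to 335.4 CPM in control and 335.4 to 373.1 CPM after repopulation. Against control, repopulation had 4 of them higher and 1 lower (Fcrls, at 50.9% of control). Markers of border macrophages moved with them, from 30.5 to 40.2 CPM in control to 4.48 to 5.66 CPM on PLX3397, with all 6 tested of 8 called lower and Pf4 and Ms4a7 at 0 counts, and stood at 32.6 to 38.7 CPM after repopulation. The parts of microglia and border macrophages in the results below were not tested apart. In bulk RNA, fewer cells of a type and less RNA per cell cannot be told apart.

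On PLX3397, 7 of the 10 synthesis genes were lower than in control and none was higher (edgeR's quasi-likelihood test, Benjamini-Hochberg adjusted p below 0.05). Among all 18369 genes tested, 8.35% were lower and 8.19% higher, 1533 and 1505 genes. With gene length and GC trends taken out of each library these became 859 lower and 1810 higher genes. The median log2 fold change was -0.54 over the 10 genes and -0.00 over all tested genes. The 10 genes were chosen with earlier results of these data known, so their contrast with all genes is not independent of that choice. For 5 of the 10, every PLX3397 library lay below every control library, and for none did every one lie above. Among all tested genes 6.46% lay below and 3.95% above without overlap, 10.4% in all. These 5 were Hpgds, Tbxas1, Alox5, Alox5ap and Ptgs1, and they were left at 13.8% to 60.2% of the control mean. The other 5 were left at 76.6% to 100.9%.

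**Figure D1:**
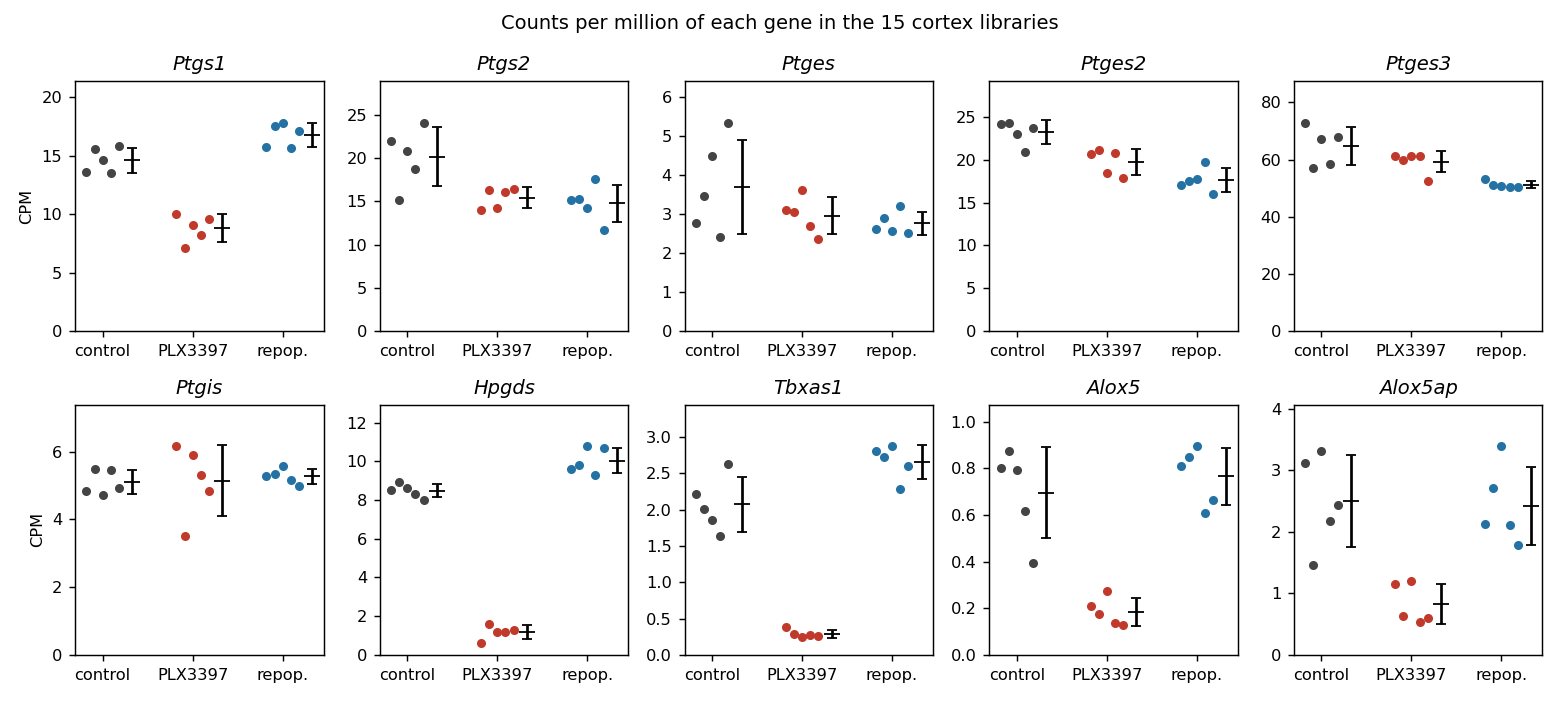
CPM (vertical axes, each starting at 0) of the 10 genes in control, PLX3397 and repopulation (repop.) libraries, 1 point per mouse in the order of mouse numbers, with the mean and SD of 5 beside each group. Hpgds, Tbxas1, Alox5, Alox5ap and Ptgs1 have all 5 PLX3397 points below all control and repopulation points, and Ptges2 and Ptges3 have all repopulation points below all control points.

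After repopulation the same 5 genes were higher than on PLX3397, again with no overlap between the groups, while Ptges2 and Ptges3 were lower, both with overlap. Among all tested genes 7.61% were higher and 8.98% lower in this comparison (1398 and 1649 genes, or 776 and 3482 with length and GC trends taken out), 16.6% in all. Without overlap 6.91% were higher and 4.52% lower, 11.4% in all. Against control, 3 synthesis genes were lower after repopulation, Ptgs2, Ptges2 and Ptges3, and none was higher. The share of all tested genes was 15.2% lower and 13.9% higher (2797 and 2548 genes, or 2954 and 1422 with length and GC trends taken out), 29.1% in all. The ranges of control and repopulation did not overlap for Ptges2 and Ptges3, which were lower, and Hpgds, which was higher but not called, against 11.4% lower and 10.9% higher among all tested genes, 22.3% in all. The comparisons with PLX3397 share the PLX3397 libraries and those with control share the control libraries, so they are not independent of one another.

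Hpgds, Tbxas1, Alox5, Alox5ap and Ptgs1 were lower on PLX3397 and higher again after repopulation. Promoter stretches are shown for the 4 of them with a window. RefSeq's promoter windows on GRCm38.p6 were found for 8 of the 10 genes, and not for Alox5ap and Ptgis. The 250 bases before each start were searched on both strands for GAGGAA, the core bound by PU.1, the lineage factor of macrophages and microglia. These letters stood in 6 of the 8 windows, against 23.3% of 32851 windows of the same length. They were found for Ptgs1, Hpgds, Tbxas1 and Alox5, and also for Ptgs2 and Ptges, which did not share that course, and not for Ptges2 or Ptges3. The longer GAGGAAGT, which contains the shorter motif, stood in 2 of the 8 (Ptgs1 and Hpgds) against 2.4% of all windows. A match of letters describes the window only, and a link to the course of these genes was not tested. The stretches around the match, with the shared letters in capitals, read 5′ to 3′ on the strand that holds them (the opposite strand to the gene for Tbxas1), were
Ptgs1: ggctggagcaGAGGAAgttggcggtc
Hpgds: cttttaggtgGAGGAAgtggcctctg
Tbxas1: tctttataaaGAGGAAggaagcagag
Alox5: agatggggcaGAGGAAcaagggcttc

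The stretches lie at chr2:36230392-36230417, chr6:65144764-65144789, chr6:38918957-38918982 and chr6:116461299-116461324. Those of Hpgds and Tbxas1 lie inside the gene as GENCODE annotates it, since RefSeq's start lies further downstream. The match began 24 bases before the start in Ptgs1, 49 in Hpgds and 136 in Alox5. The whole windows of Ptgs1 (chr2:36230176-36230425, + strand) and Alox5 (chr6:116461179-116461428, - strand), a cyclooxygenase and the lipoxygenase whose transcripts fell, are given because no annotated exon lies in them. Capitals mark GAGGAA.
Ptgs1: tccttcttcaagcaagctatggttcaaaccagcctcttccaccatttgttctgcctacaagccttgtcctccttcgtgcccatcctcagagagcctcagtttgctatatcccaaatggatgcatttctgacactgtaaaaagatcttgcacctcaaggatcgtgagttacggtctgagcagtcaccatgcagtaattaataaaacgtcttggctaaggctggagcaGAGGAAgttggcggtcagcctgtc
Alox5: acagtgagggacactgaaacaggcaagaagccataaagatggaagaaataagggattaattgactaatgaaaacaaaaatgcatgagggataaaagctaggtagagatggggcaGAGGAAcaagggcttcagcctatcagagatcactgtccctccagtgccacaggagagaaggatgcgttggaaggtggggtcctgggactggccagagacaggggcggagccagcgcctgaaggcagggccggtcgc

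Hpgds, the hematopoietic prostaglandin D synthase, makes PGD2. The 5 control libraries held 8.54, 8.95, 8.62, 8.34 and 8.0 CPM and the PLX3397 libraries 0.591, 1.59, 1.21, 1.19 and 1.28 CPM, which rest on 17 to 45 reads each. The repopulation libraries held 9.60, 9.80, 10.8, 9.32 and 10.7 CPM. All PLX3397 values lay below the lowest control value, and all repopulation values lay above the highest control value. Hpgds fell by 2.85 on the log2 scale (SE 0.13, adjusted p = 4.94e-15 in edgeR's quasi-likelihood test) and rose by 3.08 (SE 0.13, adjusted p = 5.99e-16) from PLX3397 to repopulation. Its difference between repopulation and control was 0.24 (SE 0.10) and missed the threshold (edgeR adjusted p = 0.0807), although the ranges did not overlap. That call was gained with DESeq2 (adjusted p = 0.0325), with only these 2 groups in the fit (0.0174) and without PLX3397 mouse 1 (0.0284). Over all 23 alternative fits in edgeR or DESeq2 the difference was 0.138 to 0.261, with an adjusted p of up to 0.372. Mast cells also make HPGDS. Of 6 mast cell markers, 1 was abundant enough to be tested and it was not called. Their summed level was 47.9 to 60.7 CPM in control, 48.7 to 61.3 CPM on PLX3397 and 51.4 to 56.1 CPM after repopulation, with Fcer1a at 0 in control and after repopulation. Because the others had too few reads to pass the count filter, this sum rests mainly on the 1 tested marker. It therefore cannot show whether mast cells changed.

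Tbxas1, the thromboxane synthase, makes the platelet activator and vessel constrictor thromboxane A2. It was measured at 2.22, 2.01, 1.86, 1.64 and 2.63 CPM in control, at 0.383, 0.283, 0.241, 0.271 and 0.256 CPM on PLX3397, and at 2.81, 2.72, 2.87, 2.29 and 2.60 CPM after repopulation. The PLX3397 values rest on 6 to 11 reads per library and did not overlap either other group, whereas control and repopulation overlapped. Tbxas1 fell by 2.82 on PLX3397 (SE 0.20, adjusted p = 5.51e-11 in edgeR's test) and rose by 3.17 (SE 0.20, adjusted p = 2.74e-12) from PLX3397 to repopulation. Against control, repopulation stood at 128.1% ± 11.1 of the control mean (SD, n = 5), with a log2 difference of 0.35 that was not called (edgeR adjusted p = 0.0786) and that was called without control mouse 5 (0.0353). Over all 23 alternative fits in edgeR or DESeq2 it was 0.243 to 0.437, with an adjusted p of up to 0.252.

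Hpgds and Tbxas1 were left at 13.8% ± 4.27 and 13.8% ± 2.69 of their control means on PLX3397 (SD, n = 5). No difference between groups in the ratio of Tbxas1 to Hpgds counts within a library passed the test with all libraries. On the log2 scale the ratio was -2.04 ± 0.28 in control, -1.91 ± 0.74 on PLX3397 and -1.91 ± 0.12 after repopulation (SD, n = 5 each; exact two-sided permutation p = 0.881 for PLX3397 against control and 0.381 for repopulation against control). The wide spread on PLX3397 came from mouse 1 of that group, which had the lowest Hpgds and the highest Tbxas1 value. Without it the ratio was 0.33 higher after repopulation than on PLX3397 (exact permutation, adjusted p = 0.0476, which took the Ptgs1 to Ptgs2 ratio at the same smallest p), where it had differed by -0.00 with all libraries.

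Alox5 encodes 5-lipoxygenase, which starts leukotriene synthesis. It was at 0.802, 0.875, 0.793, 0.616 and 0.392 CPM in control and 0.209, 0.177, 0.276, 0.136 and 0.128 CPM on PLX3397. Those PLX3397 values rest on only 3 to 8 reads per library. After repopulation it stood at 0.811, 0.850, 0.894, 0.607 and 0.666 CPM. The PLX3397 libraries lay below the others in both comparisons, and control and repopulation libraries overlapped. Alox5 fell by 1.88 (SE 0.31, edgeR adjusted p = 9.26e-05) and rose again by 1.99 (SE 0.31, adjusted p = 4.03e-05), and repopulation differed from control by 0.11 with a 95% interval of -0.42 to 0.64.

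Alox5ap encodes FLAP, which presents arachidonic acid to 5-lipoxygenase. Its control libraries were spread, at 3.13, 1.46, 3.31, 2.18 and 2.43 CPM, against 1.15, 0.636, 1.21, 0.543 and 0.598 CPM on PLX3397 and 2.13, 2.72, 3.39, 2.11 and 1.79 CPM after repopulation. The highest PLX3397 library was still below the lowest control library. Alox5ap fell by 1.58 (SE 0.26, edgeR adjusted p = 0.00018) to 33% ± 12.9 of control (SD, n = 5) and rose by 1.52 (SE 0.26, adjusted p = 0.000291) after repopulation, when it differed from control by -0.06 with a 95% interval of -0.55 to 0.43. The ratio of Alox5ap to Alox5 within a library differed by 0.21 on the log2 scale between PLX3397 and control (exact permutation p = 0.651, adjusted p = 0.781 over 12 tests of ratios). Of the exonic length of Alox5ap, 13.3% is shared with Gm19719, an antisense gene, and whether counting used the strand is not stated in the labels.

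Ptgs1 encodes COX-1, the constitutive cyclooxygenase. It was at 13.6, 15.5, 14.6, 13.5 and 15.8 CPM in control, 10.1, 7.07, 9.06, 8.21 and 9.61 CPM on PLX3397, and 15.7, 17.6, 17.8, 15.6 and 17.1 CPM after repopulation. The PLX3397 libraries formed a separate lower group, but more of Ptgs1 was left than of the 4 genes above. Its remaining share was 60.2% ± 8.12 of control (SD, n = 5, range 48.4% to 68.8%), and the highest share in any PLX3397 library was 18.7% for Hpgds, 18.5% for Tbxas1, 39.6% for Alox5 and 48.2% for Alox5ap. This difference between genes was not tested. Ptgs1 fell by 0.72 on the log2 scale on PLX3397 (SE 0.08, edgeR adjusted p = 5.91e-07). It rose from PLX3397 to repopulation by 0.91 (SE 0.08, edgeR adjusted p = 4.8e-09). Repopulation was higher than control by 0.20 (SE 0.08), which was not called (edgeR adjusted p = 0.0632), and it was called with no count filter (0.0494), with only these 2 groups in the fit (0.0245) and without PLX3397 mouse 1 (0.0495) or 2 (0.0357). Over all 23 alternative fits in edgeR or DESeq2 this difference was 0.162 to 0.222, with an adjusted p of up to 0.166.

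Summed levels of vessel markers were also lower on PLX3397 than in control, beside the fall of Ptgs1. The summed level of 8 endothelial markers was 158 to 177 CPM on PLX3397 and 183 to 202 CPM in control, with 3 of 8 called lower (median log2 fold change -0.155). That of 8 pericyte and smooth muscle markers was 135 to 151 CPM on PLX3397 and 160.0 to 177 CPM in control, with 1 of 8 called lower (median -0.19). That of 8 fibroblast and meningeal markers, Pdgfra among them, was 102 to 113 CPM on PLX3397 and 131 to 157 CPM in control. Only 1 of these 8 was called lower, and of all tested genes 8.35% were. The median log2 fold change over the 8 was -0.01, so the lower sum does not describe most of them. None of these markers was at 0 in all libraries of a group. The summed level of 10 blood leukocyte and platelet markers was 2.38 to 3.37 CPM on PLX3397 and 2.63 to 4.12 CPM in control, with 1 of the 10 abundant enough to be tested and not called. After repopulation the endothelial sum was 189.8 to 205.9 CPM, with 5 of 8 called higher than on PLX3397, and the pericyte and smooth muscle sum 169.4 to 179 CPM, with 3 of 8 called higher. The fibroblast and meningeal sum was then 124.9 to 153.1 CPM, with 1 of 8 called higher. The part of these cell types in the fall and rise of Ptgs1 was not tested.

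Ptgs2 encodes COX-2, the inducible cyclooxygenase, and was lower than control both on PLX3397 and after repopulation. Control libraries held 22, 15.1, 20.8, 18.8 and 24.1 CPM, PLX3397 libraries 14.1, 16.4, 14.2, 16.0 and 16.5 CPM, and repopulation libraries 15.1, 15.2, 14.2, 17.6 and 11.7 CPM. Control mouse 2 lay within the range of both other groups, while the other 4 controls lay above both. Ptgs2 fell by 0.37 on PLX3397 (SE 0.11, edgeR adjusted p = 0.0316) and was lower than control after repopulation by 0.45 (log2 fold change -0.45, SE 0.11, adjusted p = 0.0058). Repopulation and PLX3397 differed by -0.08, with a 95% interval of -0.33 to 0.17. The PLX3397 call was lost with the mouse number as a block (adjusted p = 0.0797) and without any of control mice 1, 3 or 5 or PLX3397 mice 1, 3 or 4 (0.0532 to 0.0835), whereas the call after repopulation held in each of 23 alternative fits. Of 8 cortical neuron markers, 1 was lower than control on PLX3397, and 2 were lower and 2 higher after repopulation. Their summed level was 5729 to 6091 CPM in control, 5546 to 5742 CPM on PLX3397 and 5447 to 5904 CPM after repopulation, none was at 0, and their part in the Ptgs2 result was not tested.

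The log2 ratio of Ptgs1 to Ptgs2 counts within a library was -0.45 ± 0.29 in control, -0.82 ± 0.28 on PLX3397 and 0.19 ± 0.27 after repopulation (SD, n = 5 each). No repopulation library overlapped a PLX3397 library, and Ptgs1 had more counts than Ptgs2 in 4 of 5 repopulation libraries, 1 of 5 control libraries and 0 of 5 PLX3397 libraries. The difference of 1.01 between repopulation and PLX3397 had the smallest p that splits of 5 against 5 allow, an exact two-sided permutation p of 0.00794, which became 0.0953 after adjustment over 12 ratio tests. That between repopulation and control was 0.64 (exact p = 0.0159, adjusted p = 0.0954) and that between PLX3397 and control -0.37 (exact p = 0.0714, adjusted p = 0.214). None passed the threshold after adjustment with all libraries. Over 12 tests, 1 ratio at the smallest p cannot pass alone. Without PLX3397 mouse 1 the first had an adjusted p of 0.0476 in the exact permutation test only because the Tbxas1 to Hpgds ratio then had the smallest p too. Counts are not divided by length here, so the ratio compares groups and not the abundance of the 2 transcripts.

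**Figure D2:**
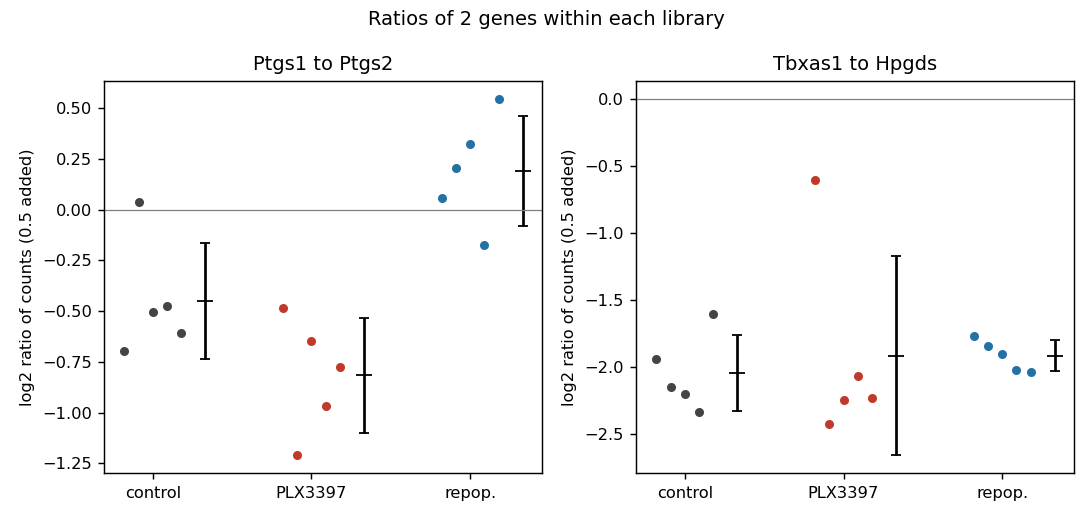
Log2 ratio of counts, with 0.5 added to each, of Ptgs1 to Ptgs2 (left) and of Tbxas1 to Hpgds (right) in each library, by group, with the mean and SD of 5. The Ptgs1 to Ptgs2 ratio is above 0 in 4 of 5 repopulation libraries and below 0 in all PLX3397 libraries, and PLX3397 mouse 1 stands apart in the Tbxas1 to Hpgds ratio.

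The 3 genes named for prostaglandin E synthases make PGE2, a mediator of fever and pain, by different routes. Ptges2, a membrane-bound enzyme, stood at 24.1, 24.3, 23.0, 20.9 and 23.7 CPM in control, 20.6, 21.2, 18.4, 20.8 and 17.9 CPM on PLX3397, and 17.0, 17.5, 17.8, 19.8 and 16.0 CPM after repopulation. Control and repopulation did not overlap, and PLX3397 lay between them and overlapped both. Ptges2 fell by 0.22 on PLX3397 (SE 0.06, edgeR adjusted p = 0.0189), fell by 0.19 from PLX3397 to repopulation (SE 0.06, adjusted p = 0.0456), and differed from control by -0.40 then (SE 0.06, adjusted p = 3.5e-05). The PLX3397 call was lost with length and GC trends taken out (log2 fold change -0.12, adjusted p = 0.22) and without control mouse 2 or PLX3397 mouse 3 or 5 (0.05 to 0.06). The call between repopulation and PLX3397 was lost in 10 of 23 alternative fits (adjusted p up to 0.132), among them those with a mouse number block (0.0595) and those without PLX3397 mouse 1, 2 or 4 or repopulation mouse 1, 2, 3 or 5.

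Ptges3 encodes the cytosolic synthase that is also p23, a co-chaperone of HSP90, and had the highest level per kilobase of exon of the 10 genes in all 3 groups. Control libraries held 72.9, 57.1, 67.2, 58.6 and 67.9 CPM, PLX3397 libraries 61.2, 60.0, 61.4, 61.2 and 52.6 CPM, and repopulation libraries 53.2, 51.1, 50.9, 50.3 and 50.5 CPM. All repopulation libraries lay below all controls, and the PLX3397 libraries lay within or below the control range. Its log2 fold change was -0.11 on PLX3397 (not called, edgeR adjusted p = 0.192), -0.23 from PLX3397 to repopulation (SE 0.06, adjusted p = 0.00669) and -0.34 from control to repopulation (SE 0.06, adjusted p = 8.05e-05). Reads of Ptges3 may be shared with the pseudogene listed as Ptges3-ps, since how reads with several matches were treated is not stated in the labels. Both Ptges2 and Ptges3 were called lower than control after repopulation in each of 23 alternative fits. Some oligodendrocyte and astrocyte markers were also called lower after repopulation than on PLX3397, whereas none was called lower on PLX3397 than in control. All 6 oligodendrocyte markers were lower after repopulation than on PLX3397 (median log2 fold change -0.27), where 4 of 6 had been higher than control, and 1 was lower than control after repopulation. Their summed level was 4876 to 5152 CPM in control, 5118 to 6122 CPM on PLX3397 and 4427 to 5324 CPM after repopulation. Of 8 astrocyte markers, 4 were lower after repopulation than on PLX3397 (median -0.11) and 2 lower than control, with sums of 4285 to 4500, 4185 to 4477 and 4178 to 4289 CPM in the same order. None of these markers was at 0, and their part in the Ptges2 and Ptges3 results was not tested.

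Ptges, the inducible microsomal synthase that works with COX-2, was at 2.78, 3.47, 4.48, 2.42 and 5.33 CPM in control, 3.10, 3.04, 3.62, 2.68 and 2.35 CPM on PLX3397 and 2.60, 2.89, 2.57, 3.21 and 2.52 CPM after repopulation. The control spread covered the other groups almost whole. It was not called against control on PLX3397 (-0.29, edgeR adjusted p = 0.279) or after repopulation (-0.41, adjusted p = 0.0777), and the latter passed with no count filter (0.026) and without control mouse 1 (0.0276) or 4 (0.0185). Over all 23 alternative fits in edgeR or DESeq2 the difference after repopulation was -0.526 to -0.254, with an adjusted p of up to 0.27. Ptgis, the prostacyclin synthase of vessel cells, was at 4.85, 5.48, 4.73, 5.46 and 4.94 CPM in control, 6.16, 3.50, 5.89, 5.33 and 4.83 CPM on PLX3397, and 5.27, 5.34, 5.59, 5.18 and 4.98 CPM after repopulation. All 3 groups overlapped, with log2 differences from control of 0.04 (95% interval -0.22 to 0.29) on PLX3397 and 0.05 (-0.21 to 0.30) after repopulation. The PLX3397 libraries, of which mouse 2 was lowest, varied more (20.4% of their mean) than control (6.94%) or repopulation libraries (4.23%).

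**Figure D3:**
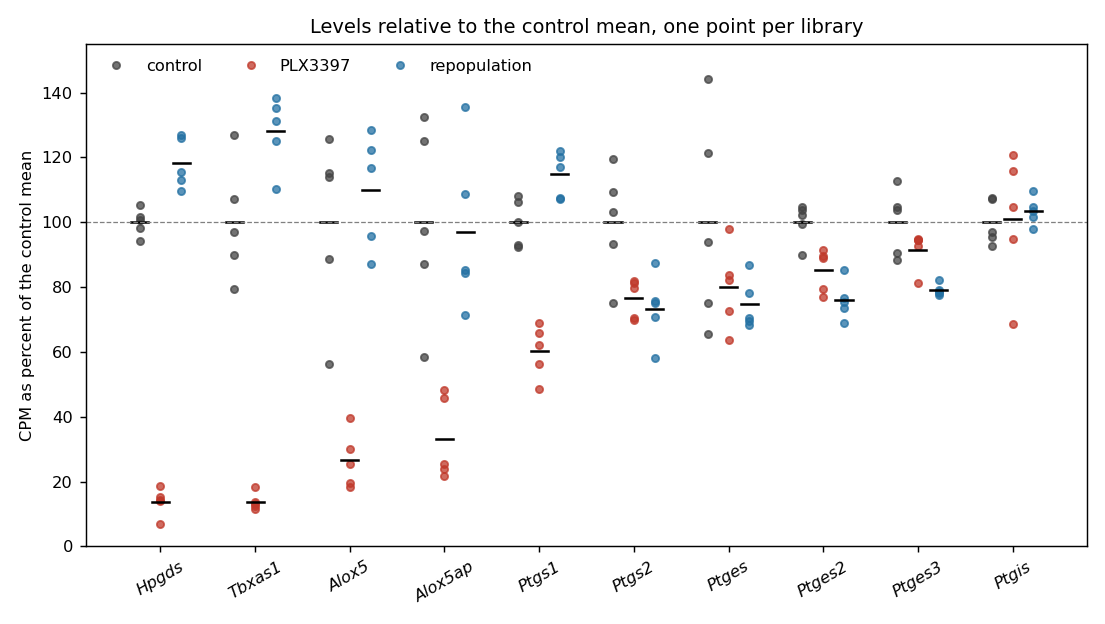
CPM as a percent of the control mean for each gene, 1 point per library, with bars at group means and the genes ordered by their mean on PLX3397. Hpgds and Tbxas1 are lowest at 13.8% each, Ptgs1 is left at 60.2%, and after repopulation Ptgs2, Ptges2 and Ptges3 have means of 73.4%, 75.9% and 79.1%.

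Levels of different genes were compared as mean CPM per kilobase of annotated exon, a level and not a difference. In control, Ptges3 was highest at 29.2 ± 3.00, followed by Ptges2 at 4.59 ± 0.28, Ptgs2 at 4.40 ± 0.75 and Ptgs1 at 3.76 ± 0.27 (SD, n = 5). The ranges of neighbours in this order overlapped from Ptges2 down to Ptgs1. Ptgis (1.98), Alox5ap (1.76), Hpgds (1.32) and Ptges (0.941) came next, each overlapping the one before it save for the step from Ptgs1 to Ptgis. Tbxas1 (0.228) and Alox5 (0.17) were lowest, overlapped each other, and lay apart from Ptges. Ptgs1 moved from place 4 in control to place 2 after repopulation, at 4.32 ± 0.26, where it lay above the range of Ptges2. Ptges2 and Ptgs2 then stood lower, at 3.48 and 3.23, and Ptgs1 itself was not called against control (edgeR adjusted p = 0.0632). The merged exons of Tbxas1 span 9.09 kb over many transcripts, which lowers its value per length.

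On GRCm38, the assembly also called mm10, the genes lie apart on 5 chromosomes and all are annotated as protein-coding. Ptgs1 lies on chromosome 2 from 36230426 to 36252272, Ptgs2 on chromosome 1 from 150100031 to 150108227, Hpgds on chromosome 6 from 65117293 to 65144908 and Tbxas1 on chromosome 6 from 38875404 to 39084585. Alox5 lies on chromosome 6 from 116410077 to 116461178 and Alox5ap on chromosome 5 from 149264767 to 149288153. Ptges (30889471 to 30929863), Ptges2 (32395896 to 32405772) and Ptgis (167191805 to 167240604) lie on chromosome 2 and Ptges3 on chromosome 10 (128058954 to 128077272). Exons of Ptgs1, Ptgis, Tbxas1 and Alox5ap share bases with a gene on the opposite strand (3.81%, 6.08%, 1.58% and 13.3% of their exonic length).

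Whether the returning transcripts kept pace with the microglial markers was tested within libraries. The median log2 CPM of 10 microglial markers stood 0.06 above control after repopulation. Relative to that median, Hpgds was 0.17 higher than in control (exact permutation p = 0.0317, adjusted p = 0.0792 over 10 genes), Tbxas1 0.30 higher (exact p = 0.0476, adjusted p = 0.0952), Ptgs1 0.14 higher (exact p = 0.19, adjusted p = 0.271), Alox5 0.10 higher (exact p = 0.69) and Alox5ap -0.08 (exact p = 0.714). None of the 5 passed with all libraries; Hpgds passed without control mouse 4 and Tbxas1 without control mouse 5 (adjusted p = 0.0397 each). With Csf1r alone as the reference, itself 0.30 higher than control (edgeR adjusted p = 5.1e-05), the values for Hpgds, Ptgs1 and Alox5 were -0.07, -0.11 and -0.15. Ptges2 and Ptges3 were lower relative to the markers, with differences of -0.46 and -0.40 (exact p = 0.00794, adjusted p = 0.0397 each), which was lost without control mouse 2 or repopulation mouse 5 for both, and for Ptges2 also without control mouse 4 or 5 (adjusted p of 0.053 to 0.0795). Over 10 genes, a single gene at the smallest exact p would have an adjusted p of 0.0794, so each of these calls also rests on other genes being as low. Ptges2 and Ptges3 had not risen from PLX3397 to repopulation. As the marker median moved by 0.06 only, their values mostly repeat their difference from control. For Ptgs2 the value was -0.50 (exact permutation p = 0.0238, adjusted p = 0.0792), for Ptges -0.42 (exact p = 0.0714, adjusted p = 0.119) and for Ptgis -0.01 (exact p = 0.921). None of these passed.

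The rest of the eicosanoid pathway was read from a list of 53 genes, of which 39 passed the count filter. On PLX3397, 4 were lower and 2 higher, a share near that of all genes tested (16.5% in either direction). The 4 lower genes were Ltc4s, Cysltr1, Hpgd and Ggt5. Ltc4s, the leukotriene C4 synthase that acts after 5-lipoxygenase, fell from 1.77 ± 0.38 to 0.206 ± 0.154 CPM (SD, n = 5 each; log2 fold change -3.06, SE 0.31, edgeR adjusted p = 3.8e-08). Cysltr1, a receptor for the cysteinyl leukotrienes, fell from 0.756 ± 0.210 to 0.0776 ± 0.055 CPM (-3.20, SE 0.41, adjusted p = 2.49e-06). These low values rest on 29 and 11 reads over all 5 PLX3397 libraries. Hpgd, which inactivates prostaglandins, fell from 3.56 ± 0.31 to 0.702 ± 0.0957 CPM (-2.33, SE 0.15, adjusted p = 3.34e-12). From PLX3397 to repopulation 3 of the 39 were higher and 3 lower, again near the share of all genes (16.6% in either direction). Ltc4s, Cysltr1 and Hpgd were the higher ones, with log2 fold changes of 3.37, 3.47 and 2.32 (adjusted p = 3.3e-09, 3.76e-07 and 3.09e-12), and none of them was called against control then. The lower ones were Fam213b (-0.39, adjusted p = 7.72e-05), Alox12b (-0.51, adjusted p = 0.0172, and 0.0554 without PLX3397 mouse 1) and Cbr1 (-0.17, adjusted p = 0.0083).

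Ggt5, a glutamyl transferase that converts leukotriene C4, fell by 0.57 on PLX3397 (edgeR adjusted p = 0.0137, and 0.057 without control mouse 1). The 2 higher genes were Ptger3, a PGE2 receptor that couples to inhibitory G proteins (0.47, SE 0.13, adjusted p = 0.0107), and Lta4h, the leukotriene A4 hydrolase (0.15, SE 0.04, adjusted p = 0.0177, and 0.0517 without control mouse 1 or 0.0552 without PLX3397 mouse 5). Of 11 genes for the release of arachidonic acid, 0 were called on PLX3397 by edgeR. Ptgds, the lipocalin-type PGD2 synthase of the brain, held 508 ± 63.7 CPM in control, 501 ± 63.5 on PLX3397 and 426 ± 70.1 after repopulation and was not called in any comparison (adjusted p = 0.996, 0.211 and 0.155 in edgeR for PLX3397 against control, repopulation against PLX3397 and repopulation against control). Choroid plexus, which also expresses Ptgds, was unevenly present, with 6 markers whose sum ranged in control from 8.30 to 24.0 CPM, with PLX3397 from 13.4 to 214 CPM and after repopulation from 8.28 to 552 CPM. Its part in the Ptgds level was not tested.

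Against control, 5 of the 39 pathway genes were lower and 5 higher after repopulation, again near the share of all genes (29.1% in either direction). Fam213b, a prostamide and prostaglandin F synthase, was among the lower genes, with all 5 repopulation libraries (23.3 to 25.7 CPM) below all controls (31.0 to 39.3 CPM; log2 fold change -0.53, SE 0.06, edgeR adjusted p = 1.79e-06). Mgll, the monoacylglycerol lipase that supplies much of the brain's arachidonic acid, fell by 0.22 (SE 0.06, adjusted p = 0.00564), from 258 ± 12.9 to 222 ± 10.5 CPM without overlap. Pla2g4e, a cytosolic phospholipase, was higher by 0.92 (SE 0.24, adjusted p = 0.0108), with 14.9 to 21 CPM against 5.00 to 13.4 CPM. Lta4h (0.16, adjusted p = 0.00603), Ptger3 (0.36, adjusted p = 0.0342), the lipoxygenase gene Alox12 (0.79, adjusted p = 0.0389) and the leukotriene transporter gene Abcc1 (0.13, adjusted p = 0.0401) were also higher. Pla2g5, a secreted phospholipase (-0.44, adjusted p = 0.0392), and Alox12b (-0.45, adjusted p = 0.0211) were lower, as was Cbr1 (-0.13, adjusted p = 0.0216), a carbonyl reductase gene which falls outside the rule for named genes and was named after its value was seen. With length and GC trends taken out, the calls of Lta4h (adjusted p = 0.177), Ptger3 (0.0906), Pla2g5 (0.0741) and Alox12b (0.0711) were lost and Abcc1 turned to -0.003. With the mouse number as a block, those of Alox12 (0.0535) and Abcc1 (0.0572) were lost, and Abcc1 was also lost with no count filter (0.101). Cbr1 was not followed singly through these alternatives, here or from PLX3397 to repopulation. Leaving out single libraries ended 5 of the other calls as well. Abcc1 was lost without control mouse 1, 2, 3 or 5 or repopulation mouse 3, 4 or 5 (adjusted p up to 0.156), and Alox12 without control mouse 1, 3, 4 or 5 or repopulation mouse 1, 3 or 5 (up to 0.118). Pla2g5 was lost without control mouse 1, 4 or 5 or repopulation mouse 1, 2, 3 or 5 (up to 0.11), Ptger3 without control mouse 1, 2 or 5 or repopulation mouse 1, 2 or 3 (up to 0.109), and Alox12b without control mouse 1 or 5 or repopulation mouse 2 (up to 0.0678).

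**Figure D4:**
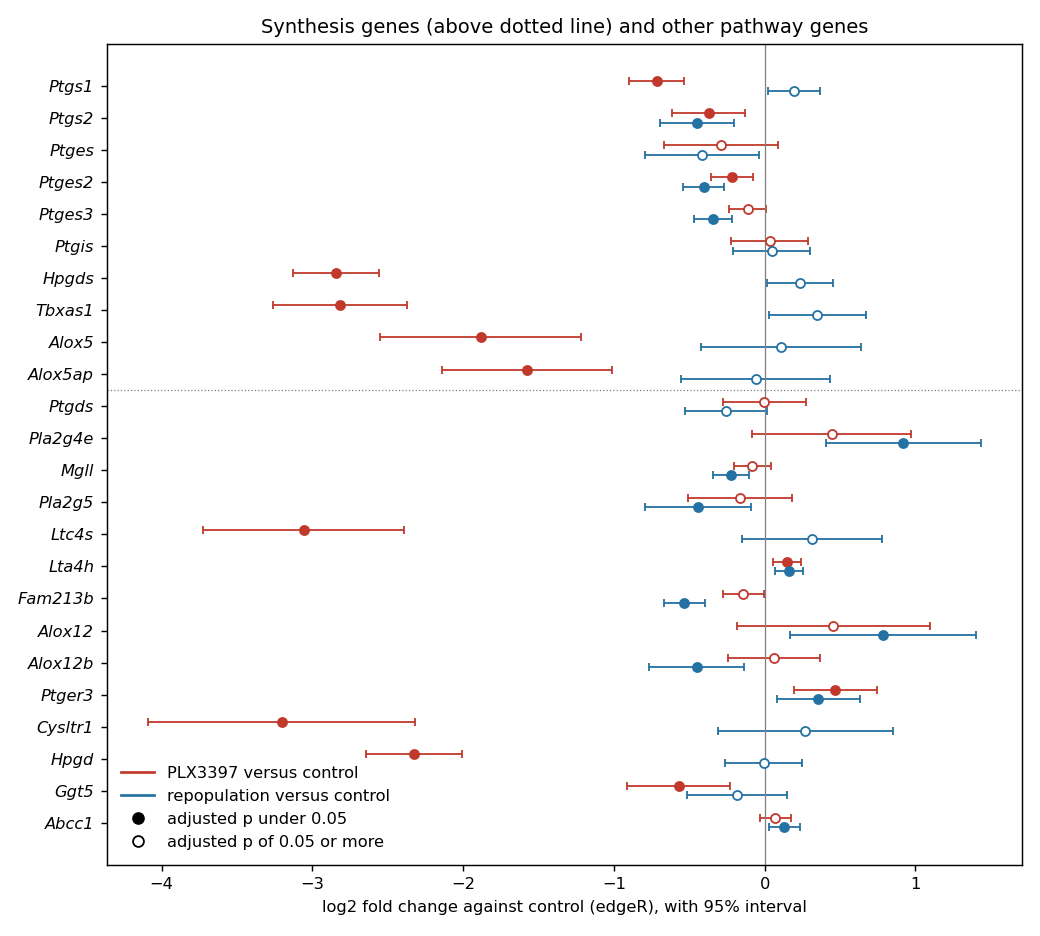
Log2 fold change against control with its 95% interval (horizontal axis) for the 10 synthesis genes and 14 other pathway genes, on PLX3397 (red) and after repopulation (blue), with filled points where the edgeR adjusted p is below 0.05. Ltc4s, Cysltr1 and Hpgd have intervals whose upper ends are -2.39, -2.32 and -2.01 on PLX3397 and intervals that include 0 after repopulation.

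The genes most like each of the 7 that changed on PLX3397 were found by Euclidean distance over the 15 libraries, in log2 CPM less the gene's control mean, among 13639 genes with a mean of at least 1 CPM. Smaller distances mean closer profiles. Among the genes nearest to Hpgds were Tlr7 (1.133) and Nckap1l (1.145), and Tbxas1 was nearest to Nckap1l, Fcgr1 and Olfml3 (0.858 to 0.99). Alox5 was nearest to Lpcat2, Tgfbr1 and Parvg (0.922 to 0.966), and Alox5ap to Tgfbr1, Abca9 and Cmtm7 (1.37 to 1.41). Ptgs1 was nearest to Plek (0.466), Sall1 (0.468) and Fmnl3 (0.568). Ptgs2 had other neighbours, Cdkn1a, Arid5a and Mkks (0.468 to 0.591), and so did Ptges2, with Abhd17a, Mrps25 and Tagln3 (0.274 to 0.283).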

How the data were processed

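Bulk RNA sequencing of mouse cortex was analysed in 15 libraries, 1 per mouse. Values in the deposited table are raw counts, whole numbers per gene. The submitters' processing notes name mm10 and the tools STAR, FastQC, MultiQC, DESeq and DESeq2. No source used here names the counting tool, the annotation release or the strand setting. Each column was tied to a mouse through its group and number in the titles. Total counts were 23413551 to 48617851 per library, so that genes with few reads are the least precise. No 2 libraries were identical, and those of a group differed by more than sampling noise (chi-square per degree of freedom 2.53 to 9.95).

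edgeR 4.0.16 in R 4.3.3 was run on the counts of all 15 libraries (filterByExpr, TMM, robust quasi-likelihood F test, no covariate). p-values were Benjamini-Hochberg adjusted over 18369 genes, with a threshold of 0.05. SEs were taken as the fold change over the root of F, and 95% intervals used 12 degrees of freedom. CPM values divide by the library total. Log2 CPM used a prior count of 2, ratios 0.5 added to each count. Exact permutation tests used all splits of 5 against 5, whose smallest p is 0.00794. DESeq2 1.42.0, other filters and scalings, a mouse number block, length and GC trends and leaving out each library were tried as alternatives.

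Annotation was GENCODE mouse release 21, and promoters came from RefSeq on GRCm38.p6. The members and gene lists were chosen with earlier results of these data known. Named genes were all members, in each pathway role up to 3 with the smallest adjusted p for PLX3397 against control among genes called in at least 1 comparison, Ptgds, 4 microglial markers, and the 3 nearest genes, predicted gene models left out, to each member called on PLX3397. One gene named by this rule is not reported here.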

Additional observations from a re-analysis of the deposited data

Results flagged for a closer look

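A test for single samples that stand apart (gap to the nearest sample over the range of the group, above 0.71 for 5 samples) was run on 72 sets of 5 values, the members and named pathway genes in each group. It marked 4, where chance marks about 1 set in 20. Ptges3 was lowest in PLX3397 mouse 5, at 52.6 CPM against 60.0 to 61.4 CPM in the other 4, and highest in repopulation mouse 1, at 53.2 CPM against 50.3 to 51.1 CPM. Lta4h was highest in control mouse 4, at 42.1 CPM against 38.0 to 39.1 CPM. Hpgd, the prostaglandin-inactivating enzyme gene, was highest in control mouse 3, at 4.105 CPM against 3.33 to 3.52 CPM.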

How the results depend on the processing

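The PLX3397 falls and later rises of Hpgds, Tbxas1, Alox5, Alox5ap and Ptgs1 were called in every alternative that tested them, 23 each and 22 for Alox5, which a minimum of 1 CPM removed. The 3 calls against control after repopulation were also kept in all 23. The member genes called lower between repopulation and PLX3397 went from 2 to 1 with that minimum, with only the 2 groups in the fit and with the replicate block, and those called higher against control after repopulation from 0 to 1 with DESeq2 or no count filter and 2 with only the 2 groups. Leaving out 1 library gave 1 to 2 and 0 to 2.

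Mouse numbers did not pair the libraries. Same-numbered libraries correlated at -0.131 to 0.103 in their deviations from group means, with 1 of 15 pairs over 0.1, and 1 of 15 libraries correlated best with its own number. With the replicate block, 3 pathway genes in place of 5 were higher after repopulation than in control.

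With trends in length and GC removed, 2 were higher and 3 in place of 5 lower (1 higher with the block as well), and 5 in place of 3 were lower than on PLX3397, as with no count filter and with block and trends. All genes called with block and trends were 838 lower on PLX3397, 3271 lower and 746 higher from PLX3397 to repopulation, and 1305 higher against control. Without 1 library the pathway counts were 1 to 2 higher on PLX3397, 2 to 4 lower from PLX3397 to repopulation, and 3 to 6 lower and 2 to 5 higher against control. Signs turned with trends, and with block and trends, for Ptgis from PLX3397 to repopulation (-0.055 and -0.046) and against control for Alox5ap (0.011 and 0.041) and Abcc1 (-0.003 and -0.004). The cause was not tested.

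Relative to Csf1r alone, the values after repopulation were -0.111 for Ptgs1, -0.071 for Hpgds and -0.151 for Alox5, which turned sign, and -0.749 for Ptgs2, -0.669 for Ptges and -0.258 for Ptgis, which passed the threshold. Csf1r was itself higher than in control.

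Leaving out 1 library gave log2 fold changes of -0.049 to 0.151 for Ptgis on PLX3397 and -0.106 to 0.093 from PLX3397 to repopulation. Against control after repopulation they were -0.028 to 0.199 for Alox5 and -0.212 to 0.049 for Alox5ap. Ratio differences were 0.909 to 1.099 for Ptgs1 to Ptgs2 and -0.128 to 0.326 for Tbxas1 to Hpgds (repopulation against PLX3397), -0.197 to 0.257 for Tbxas1 to Hpgds and -0.066 to 0.395 for Alox5ap to Alox5 (PLX3397 against control), and -0.071 to 0.007 for Ptges3 to Ptges2 (repopulation against PLX3397). Relative to the microglial markers the ranges were -0.512 to -0.402 for Ptges2, -0.435 to -0.362 for Ptges3, -0.081 to 0.06 for Ptgis, 0.138 to 0.215 for Hpgds, 0.221 to 0.399 for Tbxas1, -0.062 to 0.19 for Alox5 and -0.252 to 0.037 for Alox5ap. Few reads limit Alox5, Tbxas1, Ltc4s and Cysltr1 on PLX3397.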

Other observations

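Of the 14 pathway genes that did not pass the count filter, some still had reads. Alox12e, a lipoxygenase gene, had 1 to 12 reads per control library, 0 to 4 on PLX3397 and 2 to 9 after repopulation. Alox15 had 0 to 4, 0 to 3 and 1 to 7 reads, and Ltb4r1, the high-affinity leukotriene B4 receptor, 4 to 12, 0 to 9 and 3 to 8. Ptgir, the prostacyclin receptor, had 2 to 10, 1 to 6 and 1 to 5 reads. These 4 genes were chosen after their values were seen, and their differences were not tested.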
